A study of Mus musculus with 16 samples.

Results

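Semaphorins, plexins, ephrins, Eph receptors, Slits and Robos are the ligands and receptors of axon guidance, and 57 genes of these families were found among 18193 genes on arrays of embryonic mouse adrenal glands. They were chosen by name: each gene with a probe set of its own whose symbol is Sema, Plxn, Epha, Ephb, Efna, Efnb, Slit or Robo followed by its family number, whatever its signal. Ephb2 is not analysed here. They comprise 31 ligands (20 semaphorins, 8 ephrins and 3 Slits) and 26 receptors (13 Eph receptors, 9 plexins and 4 Robos). Of the 57, 53 had a signal high enough to be tested, and Epha6, Epha8, Robo2 and Sema3e did not, on any of the 16 arrays.

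These families steer growing axons and migrating cells by contact or over a distance. Ephrins are membrane-bound ligands of the Eph receptor tyrosine kinases, and ephrin-A ligands are held by a lipid anchor while ephrin-B ligands span the membrane. Semaphorins act on plexins, the secreted class 3 semaphorins together with neuropilins, and the secreted Slits act on Robo receptors. Outside the nervous system the same proteins pattern blood vessels, sort cells at tissue boundaries and shape the migration of neural crest cells, which give rise to the adrenal medulla.

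The glands came from C57BL/6 embryos. Their parents carried 1 or 2 floxed Dicer alleles, with or without the Sf1-Cre transgene, as Sf1-Cre/Dicer+/lox, Sf1-Cre/Dicerlox/lox or Cre-free Dicerlox/lox animals. Embryos called Dicer KO lack Dicer, the enzyme that makes mature microRNAs, where Sf1-Cre is active, which as background is in steroidogenic cells such as those of the adrenal cortex, while the whole gland was measured. Controls were littermates without Cre, called WT in the labels. The sources used here do not state which floxed alleles the controls carried. Glands of 1 genotype were pooled within a litter, and 4 pools, each from another litter, were profiled for KO and for WT at embryonic days E15.5 and E16.5, which gave 4 groups of 4 Affymetrix Mouse430_2 arrays. All values below are log2 signals, so that a difference of 1 is a doubling.

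The labelled tissue and genotype were checked first. Star, the cholesterol carrier of steroidogenic cells, lay between 13.12 and 13.86 on the 16 arrays, and Th, the first enzyme of catecholamine synthesis in the medulla, between 9.77 and 11.39. The KO minus WT difference of Dicer1 was −0.35 at E15.5 (adjusted p = 0.0638 in limma, not passing). At E16.5 it was −0.36 (adjusted p = 0.0414). Its probe sets are not placed relative to the deleted part here, which limits this check. WT replicate 2 at E16.5 stood apart in RNA quality: the 3′ minus 5′ signal of Gapdh and beta-actin averaged 3.15 on that array and 0.19 to 1.62 on the other 15.

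A feature of the deposited values bears on every difference between KO and WT. Each pair of arrays of the same genotype shared between 20 and 78 probe sets with exactly the same value, in all 56 such pairs, also across the stages. None of the 64 pairs of a KO and a WT array shared any. Separate RMA runs for KO and for WT could leave such a pattern, which was not tested. The sources used here do not state how the runs were made. Among the 9020 dimmest probe sets, 31.7% differed between KO and WT at E15.5 and 28.3% at E16.5 at an unadjusted p under 0.05, against 2.87% and 2.59% between the stages within WT and within KO. The contributions of genotype and of any separate run to a difference between KO and WT cannot be told apart. Comparisons of stages within a genotype, and of the KO difference between stages, do not set values across the genotypes in this way.

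KO differences are therefore given at 3 levels of strictness: in limma as fitted (adjusted p under 0.05); against a minimum difference equal to the median absolute KO minus WT difference of the dim probe sets (0.15, and 0.14 at the later stage); and against the 95th percentile of it (0.45 and 0.44). The last was added after the data were seen.

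Most guidance genes did not differ between KO and WT beyond these limits. At E15.5, 4 of 53 members passed in limma, 2 higher and 2 lower in KO. That is 7.55% of the members, against a background of 5.86% of the 13644 genes tested (3.69% higher and 2.18% lower). At E16.5, 7 of 53 passed, 5 higher and 2 lower, or 13.2% against a background of 10.5% (6.99% higher and 3.55% lower). Both shares were near the background. Epha1, among the lower members at both stages, was tested because of its WT signal. Single arrays moved these counts: at E16.5 9 members were higher without WT replicate 2, the array of lower RNA quality, which added Robo3, Sema3c, Sema7a and Slit1, and 3 without WT replicate 3 or KO replicate 2, while 4 were lower without KO replicate 1. At E15.5 1 was higher without KO replicate 2 or WT replicate 3 or 4, and 1 was lower without WT replicate 1 or 4 or KO replicate 1, 2 or 4. The shares of all genes in these fits are not given here. The split at E16.5 moved with the scaling: 4 members were higher and 4 lower after quantile normalization or cyclic loess, and 3 and 4 after centring at the 75th percentile. Over all genes the split of 954 higher to 485 lower became 606 to 570, 693 to 626 and 447 to 609, and at E15.5 that of 503 to 297 became 373 to 350, 462 to 379 and 276 to 372, in the same order. With the median allowance 1 member was higher and 1 lower at E15.5 (3.77% in all, background 2.69%, of which 1.59% higher and 1.1% lower). At E16.5 it left 3 higher and 2 lower (9.43%, background 4.6%, of which 2.78% higher and 1.82% lower). With the 95th percentile allowance 0 of 53 passed in limma at either stage, where the background was 0.528% and 1.31%, while 14 members (26.4%, background 19%) and 18 (34%, background 24%) had an unadjusted p under 0.05 without an allowance. The median difference of the tested members was 0.17 at E15.5 and 0.15 at E16.5, and that of all genes tested was 0.07 and 0.08. These medians also moved with the scaling. Those of the members were 0.10 and 0.05 after quantile normalization, 0.12 and 0.06 after cyclic loess and 0.10 and 0.06 after centring. Those of all genes were 0.02 and 0.02, 0.03 and 0.02, and −0.01 and −0.01, in the same order.

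Those that passed in limma were mostly Eph receptors. At E15.5 all 4 were receptors (Epha1, Epha10, Ephb3 and Plxnb1), out of 23 receptors and 30 ligands tested. At E16.5 they were 6 receptors, with Epha4 and Ephb1 added, and 1 ligand, Sema3g. Of 11 Eph receptors tested, 2 were higher and 1 lower at E15.5, and 4 and 1 at E16.5. Of 9 plexins tested 1 was lower at each stage, and of 3 Robos tested 0 passed. Over all genes tested 5.86% passed at E15.5 and 10.5% at E16.5. Differences between receptors and ligands, or between receptor families, were not tested.

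**Figure D1:**
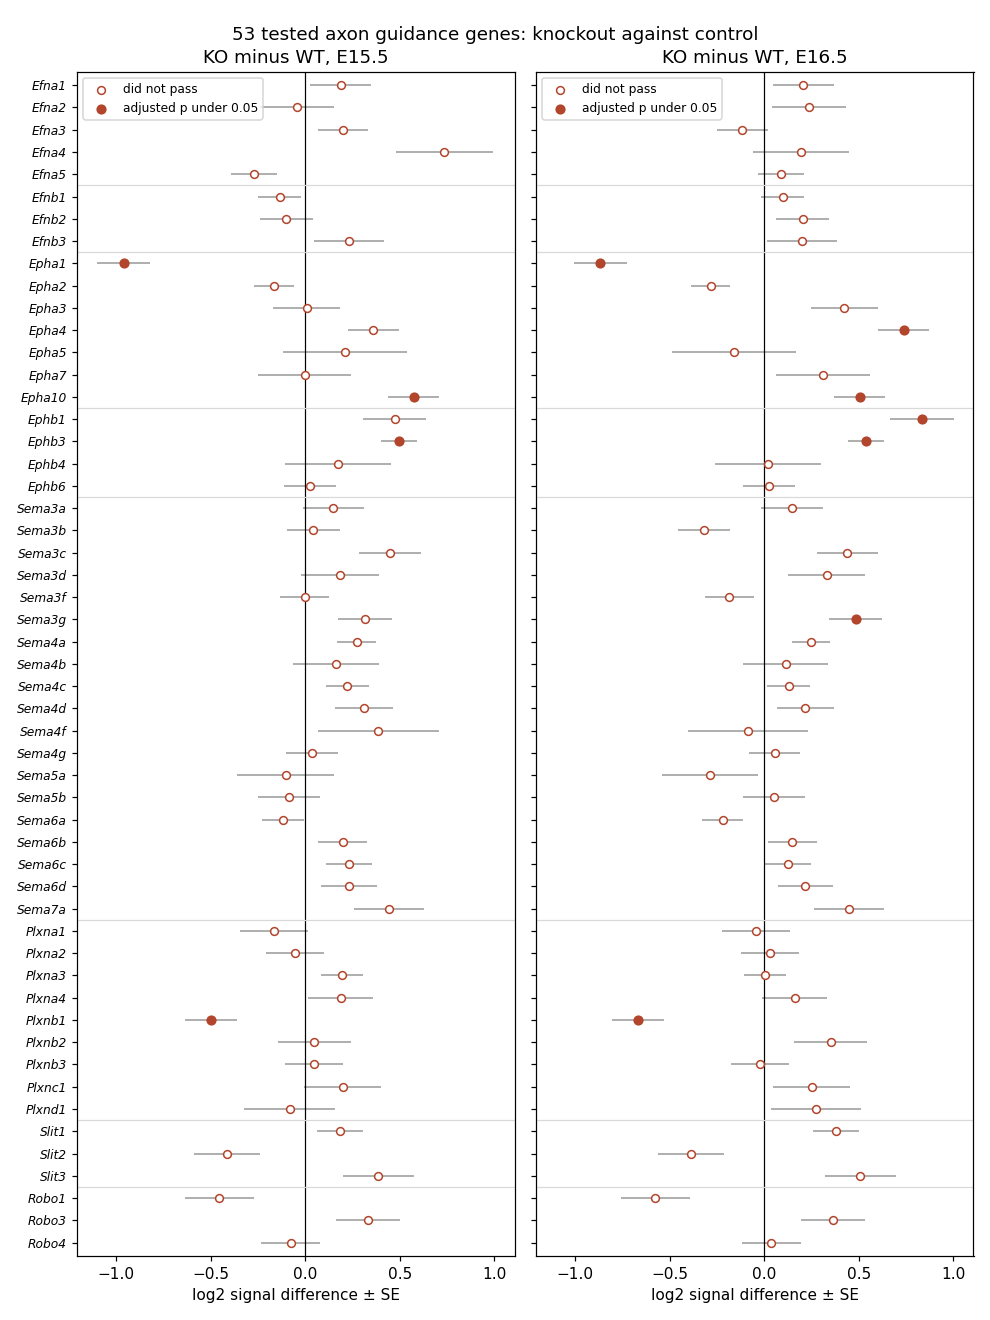
Difference in log2 signal between KO and WT for the 53 tested genes at E15.5 (left) and E16.5 (right), with 1 standard error on each side, from a limma fit to 16 arrays. Filled points passed at an adjusted p under 0.05: 4 genes at E15.5 and 7 at E16.5, with Epha1 and Plxnb1 to the left of 0 at both stages.

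Epha1, an Eph receptor of epithelial cells and founding member of the family, had the largest KO difference among the members at both stages in the probe set used per gene. At E15.5 its signal was 5.90, 6.06, 6.22 and 5.84 in WT replicates 1 to 4 and 5.05, 4.93, 5.33 and 4.87 in KO. At E16.5 it was 5.99, 5.80, 6.01 and 5.62 in WT and 5.01, 5.23, 5.07 and 4.64 in KO. Every KO array lay below every WT array of its stage. In limma the E15.5 difference was −0.96 (SE 0.14, adjusted p = 0.00049, n = 4 per group) and the E16.5 difference −0.87 (adjusted p = 0.00074), and both passed the median allowance (adjusted p = 0.00200 and 0.00273) but not the 95th percentile allowance (0.135 and 0.223). Leaving out any single array of a stage kept the call, in 8 of 8 fits each. All these fits used the same probe set, which was tested because of its WT signal.

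The lower signal of Epha1 in KO rests on 1 of its probe sets. That probe set was above the level required for testing on 8 of 8 WT arrays but 2 of 8 KO arrays, so the gene was tested because of its WT signal. The other probe sets of Epha1 lay below that level and did not show the fall: one differed by −0.01 and 0.06 at E15.5 and E16.5, the other by 0.31 and 0.39. With the mean of all its probe sets in place of the brightest one, Epha1 was below the level for testing.

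Plxnb1, which encodes the plexin that binds the membrane semaphorin Sema4d, was also lower in KO. Its WT signals at E15.5 were 9.03, 8.64, 8.64 and 9.07, against 8.27, 8.44, 8.57 and 8.12 in KO. At E16.5 they were 8.71, 8.82, 9.10 and 9.09 against 8.43, 8.17, 8.28 and 8.17. The groups did not overlap at either stage, although the gap at E15.5 was narrow. In limma the E15.5 difference was −0.50 (SE 0.14, adjusted p = 0.0395) and the E16.5 difference −0.67 (adjusted p = 0.00436). The median allowance left the call at E16.5 (adjusted p = 0.0203) and not that at E15.5 (0.219).

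The E15.5 call of Plxnb1 was lost without WT replicate 1 or 4 or KO replicate 1, 2 or 4 (adjusted p up to 0.126) and held in the other 3 of 8 such fits. It was also lost with a stricter filter (0.0515) and with the E15.5 arrays fitted alone (0.0712). That at E16.5 held in all 8 fits. Its second probe set, of similar brightness, differed by −0.40 and −0.47, in the same direction with KO and WT groups that did not overlap at either stage. The ligand Sema4d differed by 0.31 and 0.22 and did not pass at either stage. Its other probe sets above the level for testing disagreed, with −0.27 and −0.33 in the first and 0.34 and 0.36 in the second.

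Ephb3, a receptor for ephrin-B ligands, was higher in KO with the least spread of the members that passed. At E15.5 its signal was 7.37, 7.25, 7.46 and 7.28 in WT and 7.95, 7.93, 7.86 and 7.60 in KO. At E16.5 it was 7.30, 7.48, 7.24 and 7.23 in WT and 7.85, 7.90, 7.85 and 7.80 in KO. The lowest KO array was above the highest WT array at both stages. The difference was 0.50 (SE 0.10, adjusted p = 0.00443) and 0.54 (adjusted p = 0.00160) in limma, and it passed the median allowance at both stages (adjusted p = 0.0481 and 0.0134). The call held in all 8 fits without 1 array at each stage. Ephb3 has only 1 analysed probe set, as do Epha10, Ephb1 and Sema3g. Their differences could therefore not be compared with those of another probe set.

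Epha10, an Eph receptor without kinase activity, was higher in KO at both stages in limma, at E15.5 by 0.57 (SE 0.13, adjusted p = 0.0161) and then by 0.50 (adjusted p = 0.0238). Its WT signals were 6.23, 6.40, 5.73 and 5.89 at E15.5 and 6.49, 6.42, 6.31 and 6.41 at E16.5. The KO signals were 6.65, 6.81, 6.41 and 6.68 and then 6.86, 7.11, 6.88 and 6.79. At E15.5 the lowest KO array was just above the highest WT array, and at E16.5 the gap was wider. The median allowance ended both calls (adjusted p = 0.0962 and 0.114), as did 75th percentile centring (0.0744 and 0.113), and fitting the E15.5 arrays alone ended that at E15.5 (0.0585). At E15.5 the call was lost without KO replicate 2 or WT replicate 3 or 4 (adjusted p up to 0.0605), and at E16.5 without KO replicate 2 or 3 or WT replicate 3 (up to 0.0739).

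Epha4, a receptor that binds both classes of ephrin, passed at E16.5. Its WT signals there were 5.89, 6.09, 6.12 and 6.16 and its KO signals 6.60, 6.42, 6.98 and 7.20, a difference of 0.74 (SE 0.14, adjusted p = 0.00204 in limma and 0.00884 with the median allowance). At E15.5 the signals were 6.00, 5.93, 6.03 and 5.92 in WT and 6.24, 6.37, 6.28 and 6.43 in KO, a difference of 0.36 that did not pass (adjusted p = 0.146). It did pass at E15.5 with the mean of its probe sets (adjusted p = 0.0262), with its most variable probe set (0.0199) and with the E15.5 arrays fitted alone (0.0362). KO and WT did not overlap at either stage.

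The probe sets of Epha4 disagreed. Of the 4 others, a pair above the level for testing differed by more than the one used: one by 0.96 and then 1.32, the other by 0.78 and then 1.43. A further one above that level went the other way, by −0.32 (unadjusted p = 0.0163) and −0.26 (0.0414), and the dimmest differed by 0.06 and 0.41. The KO difference of Epha4 is therefore uncertain in size, and 1 of 5 probe sets has the opposite sign.

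Ephb1, a receptor for ephrin-B ligands known from retinal axon crossing, passed at E16.5 as well. Its signals there were 5.80, 6.33, 6.07 and 5.42 in WT and 6.87, 7.00, 6.61 and 6.47 in KO, a difference of 0.83 (SE 0.17, adjusted p = 0.00400 in limma and 0.0135 with the median allowance). At E15.5 they were 5.87, 5.96, 6.07 and 5.89 in WT and 6.29, 6.29, 6.44 and 6.67 in KO, a difference of 0.47 that did not pass (adjusted p = 0.119) but did with arrayWeights (0.047) and with the E15.5 arrays fitted alone (0.0324). The groups did not overlap at either stage, and the call at E16.5 held in all 8 fits without 1 array.

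**Figure D2:**
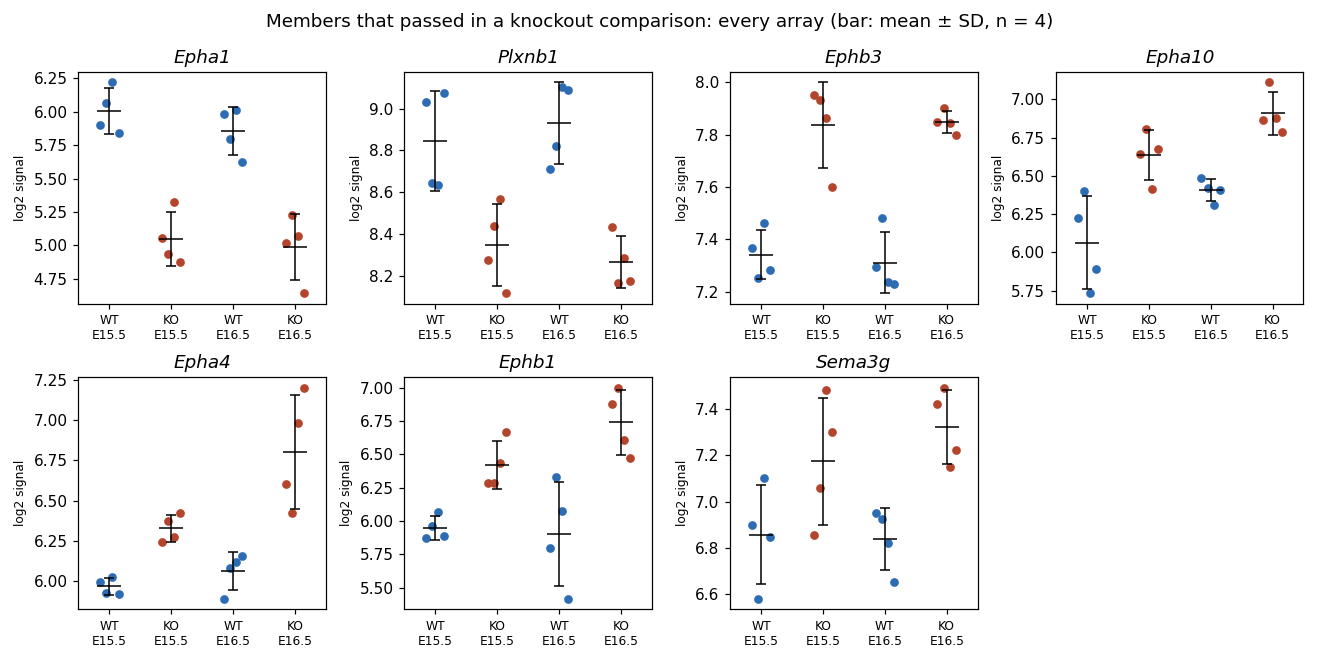
Log2 signal on every array for the 7 genes that passed in a comparison of KO with WT; points are pools of glands and bars the mean ± SD of 4 pools. Each axis has its own range and does not start at 0, and KO and WT points do not overlap at either stage in 6 of the 7 panels, with Sema3g the exception.

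**Figure D3:**
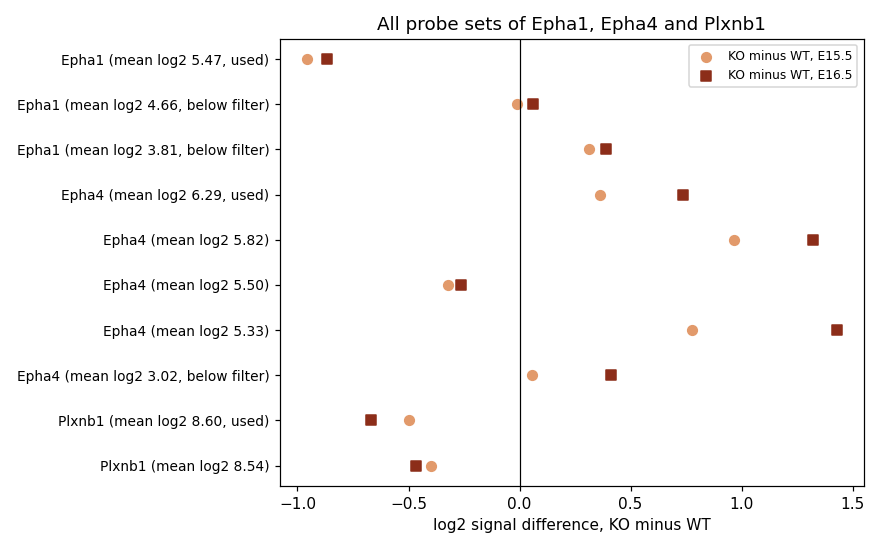
KO minus WT difference in log2 signal at E15.5 (circles) and E16.5 (squares) for every probe set of Epha1, Epha4 and Plxnb1, labelled with its mean signal. The pair of Plxnb1 probe sets lies on the same side of 0, while those of Epha1 and of Epha4 lie on both sides.

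In 6 of 53 members, or 11.3%, KO and WT did not overlap at both stages on the same side, against 6.96% of all genes tested (4.46% higher and 2.5% lower). They were Epha1 and Plxnb1, lower in KO, and Epha4, Epha10, Ephb1 and Ephb3, higher. Epha1 is counted here although it was tested because of its WT signal. At E15.5 alone 11 members did not overlap (20.8%, background 14.5%) and at E16.5 alone 8 (15.1%, background 15.2%). The other Eph receptors did not pass at either stage. Epha3 differed by 0.01 and 0.42, Epha2 by −0.17 and −0.28, Epha5 by 0.21 and −0.16, Ephb4, the receptor of venous endothelium, by 0.17 and 0.02, and the kinase-inactive Ephb6 by 0.02 and 0.03.

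None of the 8 ephrins passed in limma at either stage. At an unadjusted p under 0.05 there were 2 at E15.5, Efna4 higher and Efna5 lower in KO, and 0 at E16.5. All genes tested gave 19% and 24% at that threshold. Efna4 was 5.29, 5.60, 4.95 and 5.15 in WT at E15.5 and 5.75, 5.76, 6.29 and 6.14 in KO, a difference of 0.73 (SE 0.25, adjusted p = 0.112). The groups did not overlap there, but at E16.5 they did, with a difference of 0.19. Efnb2, the ephrin of arterial endothelium, differed by −0.10 and 0.20 and Efnb1 by −0.13 and 0.10.

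Of the 19 semaphorins tested 1 passed in limma, at E16.5, where 10.5% of all genes tested passed. At E15.5 limma called 0 (all genes 5.86%), with 4 at an unadjusted p under 0.05 (all genes 19%). At E16.5 4 were higher and 1 lower at that unadjusted threshold (all genes 24%). The semaphorin that passed was Sema3g, a secreted semaphorin of endothelial cells. Its E16.5 signals were 6.95, 6.92, 6.82 and 6.65 in WT and 7.42, 7.49, 7.15 and 7.22 in KO, without overlap, and the difference was 0.48 (SE 0.14, adjusted p = 0.0390). At E15.5 the groups overlapped, with 6.90, 6.58, 7.10 and 6.85 in WT and 6.85, 7.06, 7.48 and 7.30 in KO, a difference of 0.32 (adjusted p = 0.232).

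The call of Sema3g at E16.5 was lost after quantile normalization (adjusted p = 0.0929), cyclic loess (0.0632) or 75th percentile centring (0.103), with the median allowance (0.164), with the most variable probe set per gene (0.0513), and in 5 of the 8 fits without 1 array: WT replicate 3 or 4, or KO replicate 1, 2 or 4 (up to 0.103).

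Sema3c, a secreted semaphorin known for guiding neural crest cells into the outflow tract of the heart, differed by 0.45 (adjusted p = 0.127) and 0.44 (adjusted p = 0.100). It was 8.79, 9.07, 9.16 and 8.96 in WT and 9.35, 9.43, 9.49 and 9.50 in KO at E15.5, and 9.19, 9.94, 9.05 and 9.58 against 9.59, 10.06, 9.92 and 9.95 at E16.5. The groups were apart at E15.5 and overlapped at E16.5, where WT replicate 2, the array of lower RNA quality, was the highest WT value. Sema7a, which is anchored to the membrane by a lipid, differed by 0.44 and 0.45 and did not pass. Sema3a, the classical repellent of sensory axons, differed by 0.15 at both stages.

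Among plexins Plxnb1 alone passed, out of 9 tested. Plxnd1, the plexin of endothelial cells, differed by −0.08 and 0.27, Plxnb2 by 0.05 and 0.35 and Plxnc1, found on leukocytes, by 0.20 and 0.25. The plexin-A genes, signalling partners of neuropilins, lay between −0.16 and 0.19 at both stages in the probe sets used. Their other probe sets ranged from −0.66 to 0.13 at E15.5 and from −0.57 to 0.05 at E16.5. The lowest at E15.5 was of Plxna2. That at E16.5 was of Plxna1, in a probe set below the level for testing.

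Slits and Robos showed no difference that passed. Robo1 was 11.02, 10.76, 10.99 and 11.14 in WT and 10.64, 10.36, 10.57 and 10.51 in KO at E15.5, without overlap, and 10.71, 11.36, 11.20 and 11.41 against 10.91, 10.01, 10.71 and 10.76 at E16.5, with overlap. It differed by −0.45 (SE 0.18, adjusted p = 0.174) and −0.58 (adjusted p = 0.0540). Without KO replicate 1 at E16.5, and after each of the 3 normalizations tried, Robo1 and Epha2 joined the genes that passed as lower at that stage, and without WT replicate 1 Robo1 did. The other probe sets of Robo1, far dimmer, differed by 0.25 and 0.18 and by 0.25 and −0.04.

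The ligands of Robo1 went different ways in value. Slit2 differed by −0.41 (adjusted p = 0.200) and −0.39 (0.183), with 9.61, 9.85, 9.84 and 9.73 in WT and 9.40, 9.40, 9.02 and 9.56 in KO at E15.5. Slit3 differed by 0.39 (adjusted p = 0.282) and 0.51 (0.102), with 7.32, 7.17, 7.21 and 6.99 in WT and 7.78, 7.98, 7.48 and 7.48 in KO at E16.5. These groups did not overlap at the stage given, as in 14.5% of all genes tested at E15.5 and 15.2% at E16.5. At the other stage each gene overlapped. Slit2 at E16.5 was 9.50 to 10.30 in WT and 9.15 to 9.68 in KO. Slit3 at E15.5 was 6.85 to 7.81 in WT and 7.40 to 8.06 in KO. Slit1 differed by 0.19 and 0.38, Robo3 by 0.33 and 0.37, and Robo4, the Robo of endothelial cells, by −0.08 and 0.04.

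**Figure D4:**
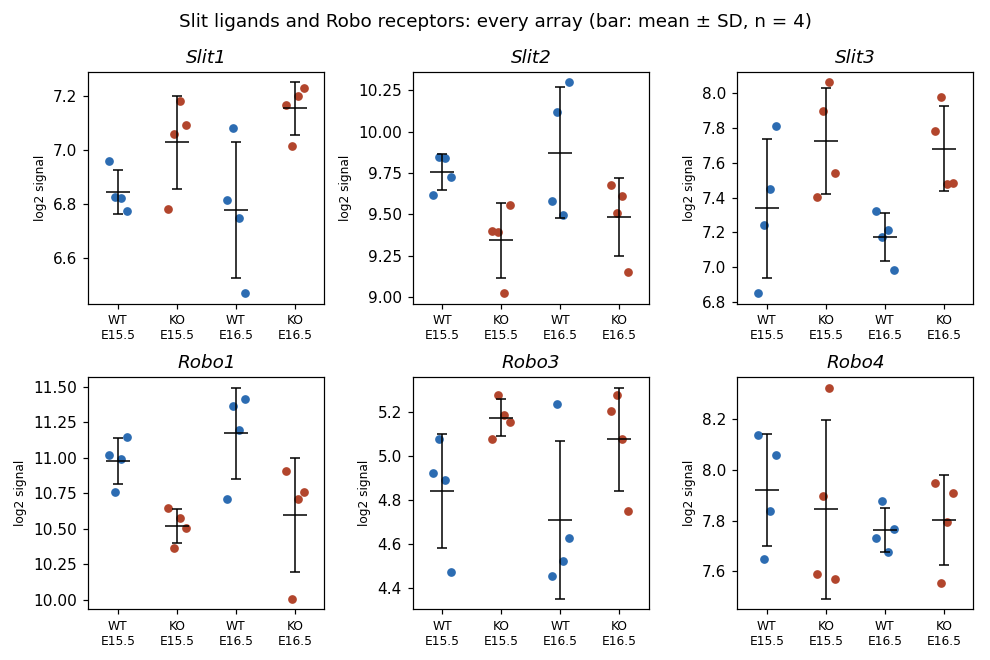
Log2 signal on every array for the 3 Slit ligands and the 3 tested Robo receptors; points are pools of glands and bars the mean ± SD of 4 pools. Each axis has its own range and does not start at 0, and KO and WT are apart for Slit2 and Robo1 at E15.5 and for Slit3 at E16.5.

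Guidance genes did not change detectably from E15.5 to E16.5. In limma 0 of 53 members passed within WT (background 0.0953%) and 0 within KO (background 0.901%), against 6 and 3 at an unadjusted p under 0.05, which is 11.3% and 5.66% of the members where all genes gave 7.85% and 9.51%. Sema3c was higher at E16.5 in both genotypes, by 0.44 in WT and 0.43 in KO (adjusted p = 0.414 and 0.335), in a second probe set by 0.09 and 0.18. Epha5 differed by 0.75 in WT (SE 0.33), the largest difference among the members, and Efna4 by −0.70 in KO. Epha4 differed by 0.47 in KO (adjusted p = 0.155) and 0.10 in WT. Epha4 passed in KO with the mean of its probe sets, with arrayWeights and without KO replicate 2 at E16.5. With arrayWeights, 5 members passed in WT, and the share of all genes in that fit is not given here.

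**Figure D5:**
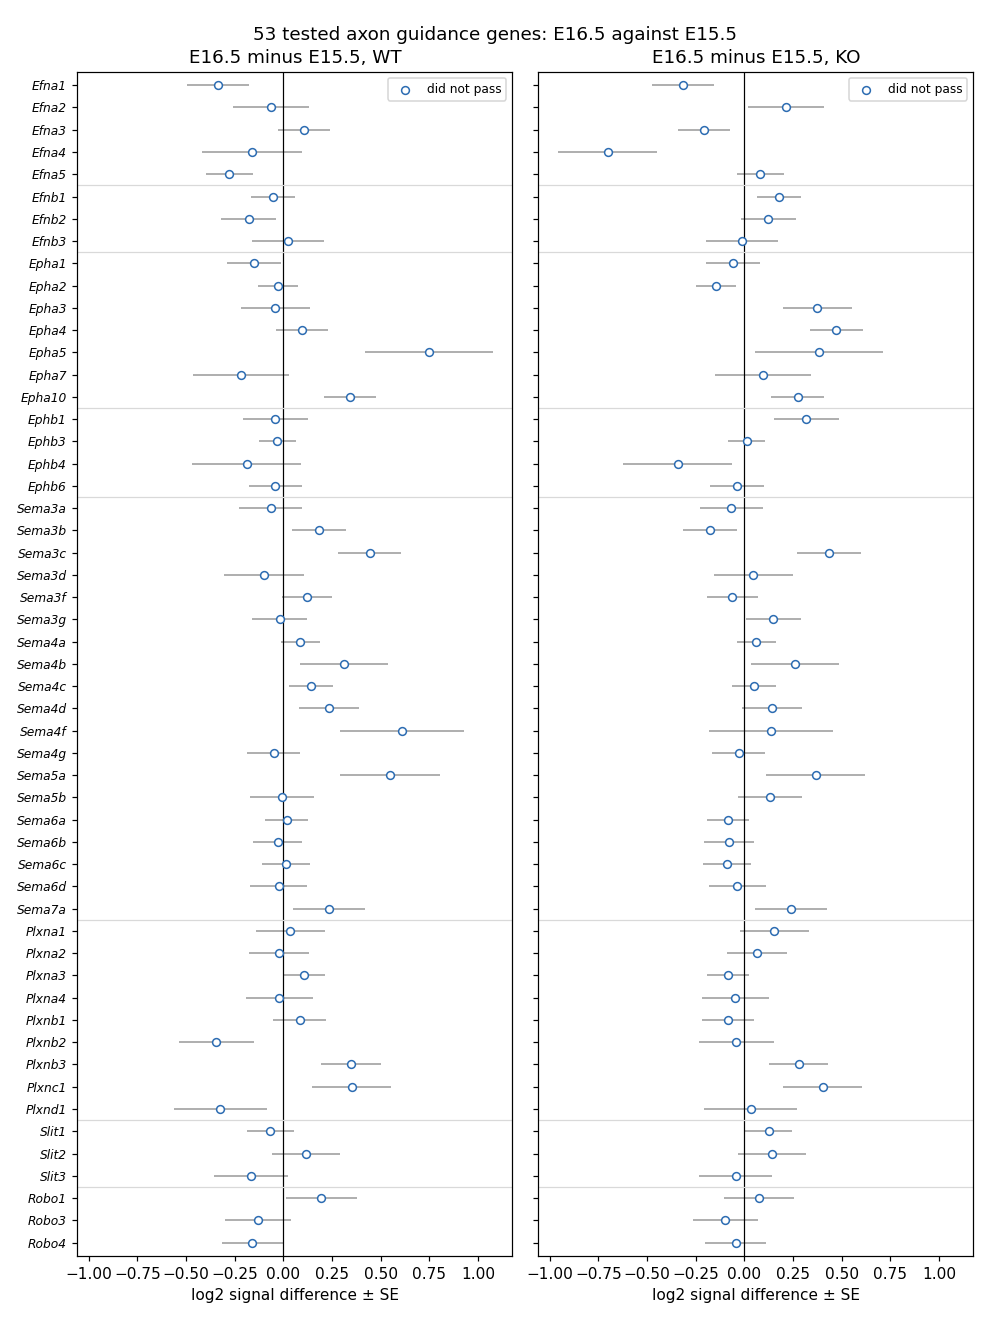
Difference in log2 signal between E16.5 and E15.5 for the 53 tested genes within WT (left) and within KO (right), with 1 standard error on each side. All points are open, since 0 of 53 passed in either genotype.

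The KO difference itself did not change between the stages beyond the error. The difference between the KO effects at E16.5 and E15.5 passed for 0 of 53 members in limma (background 0%), and 0 had an unadjusted p under 0.05 (background 1.89%). The smallest was that of Efna5 (0.0507), which was 0.047 in the fit to all probe sets from which p-values of other probe sets are given. It ranged from −0.54 for Efna4 to 0.41 for Epha3, with a median SE of 0.22. Epha4 and Ephb1, which passed at E16.5 and not at E15.5, had values of 0.38 (SE 0.19) and 0.36 (SE 0.24), so that a stronger difference at E16.5 was not shown for either.

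The other genes of the pathway came from lists chosen by name. Of 26 tested co-receptors and members of other guidance families, 1 passed as higher in KO at E15.5 and 2 did at E16.5, and none was lower, where 3.69% and 6.99% of all genes were higher. Nrcam, a cell adhesion molecule that takes part in semaphorin receptor complexes, was 8.17, 7.85, 8.20 and 7.81 in WT and 9.70, 9.55, 9.59 and 9.53 in KO at E15.5. At E16.5 it was 7.58, 8.38, 7.75 and 8.29 against 9.72, 9.05, 9.10 and 9.22. It was higher by 1.58 (SE 0.18, adjusted p = 4.13e-05) and 1.27 (adjusted p = 0.000186), more than any of the 53 members in the probe set used, and passed the 95th percentile allowance at both stages (adjusted p = 0.0018 and 0.0143). A second probe set of Nrcam differed by 1.24 and 0.73, and the third that was bright enough by −0.04 and −0.40.

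Neo1, the netrin and repulsive guidance molecule receptor neogenin, was higher by 0.57 at E16.5 (adjusted p = 0.0143, and 0.0674 with the median allowance). The neuropilins Nrp1 and Nrp2, co-receptors of class 3 semaphorins, differed by 0.17 and 0.29 at E15.5 and by 0.30 and 0.35 at E16.5, and did not pass. Of 40 tested intracellular effectors limma called 0 at E15.5, with 5 at an unadjusted p under 0.05 (all genes tested 19%). At E16.5 Arhgef15 (0.35) and Limk2, a kinase of cofilin (0.41), passed as higher, 2 of 40 where 6.99% of all genes did, and neither passed with the median allowance.

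The lists of markers of other cells differed in how many genes passed between KO and WT, and the pattern of values shared only within a genotype bears on these counts too. In bulk glands fewer cells of a type and less RNA per cell cannot be told apart. Of 14 tested macrophage genes 7 were higher in KO at E15.5 and 13 at E16.5, and 5 and 13 with the median allowance, where 3.69% and 6.99% of all genes were higher as fitted. The mean log2 signal over the 15 macrophage genes measured ranged from 7.34 to 7.55 in WT and 7.82 to 8.35 in KO at E15.5, and from 7.53 to 8.12 and 8.63 to 9.01 at E16.5. Of 15 chromaffin and neuronal genes limma called 0 at E15.5, with 3 at an unadjusted p under 0.05 (all genes tested 19%). The mean signal then ranged from 9.91 to 10.58 in WT and 10.60 to 10.86 in KO. At E16.5 3 genes were higher (1 with the median allowance), with ranges of 9.95 to 10.75 in WT and 10.49 to 11.08 in KO.

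Of 8 steroidogenic genes 1 was lower at E15.5 (0 with the median allowance) and 3 at E16.5 (3 with it), where 2.18% and 3.55% of all genes were lower as fitted, with a mean signal of 12.91 to 13.16 in WT and 12.45 to 12.86 in KO at E16.5. At E15.5 the mean signal overlapped, at 12.80 to 13.25 in WT and 12.60 to 13.08 in KO. Among 6 Schwann lineage genes 1, Erbb3, was higher at E16.5 (0 with the median allowance), with a mean signal of 7.96 to 8.06 in WT and 8.13 to 8.55 in KO. At E15.5 their mean signal overlapped, at 7.80 to 8.02 in WT and 7.93 to 8.13 in KO. In the endothelial list limma called 0 of 12 at either stage, with 0 and 3 at an unadjusted p under 0.05. In the capsule and mesenchyme list it called 0 of 13, with 1 and 2. All genes tested gave 19% and 24% at that threshold. The mean signal of the endothelial list overlapped between KO and WT at both stages. That of the capsule and mesenchyme list was 10.50 to 10.90 in WT and 10.67 to 11.04 in KO at E15.5. At E16.5 its ranges were apart, at 10.50 to 10.60 in WT and 10.71 to 10.94 in KO. Of the erythroid and kidney lists 4 and 3 genes could be tested, and limma called 0, with 0 at an unadjusted p under 0.05. The part of these cells in the differences of guidance genes was not tested.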

How the data were processed

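The values are log2 signals of 45101 probe sets on 16 arrays, deposited by the authors. The submitters' processing notes list RMA and limma, without versions, and the sources used here do not state how the runs were set up. RMA corrects background, equalises intensity distributions and summarises probes, which compresses the changes of dim genes. No further normalization was applied.

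Platform annotation named genes through 34945 probe sets with 1 symbol (932 had several and 9160 none, and 34741 symbols were updated by gene identifier). The brightest probe set over the 16 arrays stood for a gene. Testing required a signal over the array's 40th percentile on 4 or more arrays, met by 13644 of 18193 genes.

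A limma 3.58.1 model (R 4.3.3) with 4 group means was fitted to all arrays and moderated with eBayes; tests were two-sided, with Benjamini-Hochberg adjustment over all 13644 genes. Allowances used limma's treat with the minimum difference taken from the dimmest 20% of probe sets. The fit was also run on simulated data that held no general shift between KO and WT. That run cannot assess such a shift in these arrays. P-values measure the spread between pools of separate litters, and the number of arrays limits the precision (median SE of a member's KO difference 0.16).

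Members that passed in a KO comparison, or whose groups did not overlap at both stages, are given array by array; array values of Slits, Robos, Efna4, Sema3c and Nrcam were added after their values were seen. The members and lists were chosen with earlier results of these data known. Some listed genes were not analysed here. Alternatives covered normalization, filter, probe set choice, array weights, the replicate number as a block, the groups fitted and leaving out each array.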

Additional observations from a re-analysis of the deposited data

How the results depend on the processing

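The counts of members that passed depended on several choices. At E15.5, where 2 were higher and 2 lower in KO, 1 was higher and 1 lower with the median allowance and 0 and 0 with the 95th percentile allowance. 1 was higher with arrays centred on their 75th percentile, 4 with arrayWeights and 5 when the fit held the E15.5 arrays alone, which called Efna4, Epha4, Ephb1, Ephb3 and Sema3c as higher and Epha1 and Robo1 as lower. 3 were higher with the mean of probe sets or the most variable one, which added Epha4. 1 was lower with the mean of probe sets, and 0 with the stricter filter (60th percentile), which no longer tested Epha1. At E16.5, where 5 were higher and 2 lower, 3 were higher with the median allowance, with arrays centred on their 75th percentile and with the stricter filter, 0 with the 95th percentile allowance and 14 with arrayWeights. 4 were lower after quantile normalization, cyclic loess or centring on the 75th percentile, 8 with arrayWeights, 1 with the stricter filter and 0 with the 95th percentile allowance. The higher members under the stricter filter at E16.5 were Epha10, Ephb3 and Sema3g. The highest signal of Epha10 was 6.40 in WT and 6.81 in KO at E15.5, and 6.49 and 7.11 at E16.5. The arrays on which Epha10 passed the stricter filter are not given here. It may therefore have been tested there because of its KO signal, which limits that call. With no filter 7 were higher and 3 lower at E16.5. The arrayWeights fit gave WT replicate 3 at E16.5 a weight of 10.4 and replicate 2 a weight of 0.19, and it called 5 members between stages in WT and 1 in KO, where the mean of probe sets also called 1. The share of all genes that passed with arrayWeights is not given here, so its counts do not set the members apart from other genes.

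Leaving out 1 array left 1 to 2 members higher and 1 to 2 lower at E15.5, 3 to 9 higher and 2 to 4 lower at E16.5, 0 to 1 changed between stages in KO and 0 in WT. The count of 9 came without WT replicate 2 at E16.5, the array of lower RNA quality, when Robo3, Sema3c, Sema7a and Slit1 also passed. The causes of these changes were not tested, and the shares of all genes in the fits without 1 array are not given here. No difference of the 7 named genes changed sign under the alternatives run, but many of these could not change it. The allowances, filters, replicate block and fits of a stage alone leave the difference itself as it was. Epha10, Ephb1, Ephb3 and Sema3g have 1 analysed probe set each, so the choice of probe set could not change theirs. Single probe sets of Epha1 and Epha4 had the opposite sign, as given above.

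With the replicate block 1 member was lower at E15.5, since Plxnb1 was lost (adjusted p = 0.120), and the other member counts between genotypes stayed the same. No label ties a replicate number to a litter, and deviations of arrays with the same number correlated between −0.23 and 0.37. Over all genes the block gave 710 calls in place of 800 at E15.5 and 1263 in place of 1439 at E16.5.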

Other observations

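Probe sets of the same gene could be compared for the members beyond those described above. The 57 genes had 128 probe sets, of which 93 were bright enough to test, and 28 genes had more than 1 of these. A bright enough probe set other than the one used had the opposite sign at an unadjusted p under 0.05 for 3 genes at each stage: Epha4, Sema4a and Slit1 at E15.5 and Epha4, Plxnb3 and Sema4a at E16.5. Sema4a, a membrane semaphorin of immune cells, differed by 0.27 and 0.25 in the probe set used and by −0.37 and −0.34 in the other. For Slit2 all 3 probe sets were lower in KO in value at both stages, from −0.34 to −0.42. These genes were picked after their values were seen.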
